A study of Homo sapiens with 6 samples.

Results

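The genes described here are interferon-stimulated effector genes and parts of the complex that switches them on, 45 protein-coding genes chosen by symbol from the 58735 genes of the deposited table. The table also held 77 further genes of the interferon pathway, which are given beside them. All 45 were found. RNA was sequenced from MG63 cells, an established human osteosarcoma line, in 3 samples treated for 48 h with siRNA to FUBP1 (siFUBP1) and in 3 treated with a control siRNA (siMock). FUBP1 encodes a nucleic acid binding protein. The labels named no other treatment in either group, both groups were the same cell line, and which of the study's FUBP1 siRNAs was sequenced was not given in the sources used here. Nothing in the labels says whether the samples of a group were separate cultures, so p-values measure only the spread between these samples. Total counts were 16889572, 17484313 and 16309900 in siMock and 16502690, 16499842 and 17073410 in siFUBP1. FUBP1 itself fell to 18.4% of its siMock level, from 255 ± 18.5 to 46.9 ± 5.33 CPM, the counts scaled to the size of the library (SD, n = 3), in the direction of the labels. Mitochondrial genes took 5.60 to 6.59% of the counts in siMock and 3.98 to 4.88% in siFUBP1, and the part of this difference in the results was not tested.

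Type I interferons bind a receptor made of IFNAR1 and IFNAR2. The kinases JAK1 and TYK2 on its inner side phosphorylate STAT proteins, and ISGF3 then forms with STAT2 and IRF9 among its subunits. ISGF3 enters the nucleus and binds the interferon-stimulated response element, a short sequence with repeated GAAA letters in the promoters of its target genes. The proteins made from these targets block viral entry, translation and replication, and many tumor lines express some of them without added interferon.

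The labelled cell type was checked against its markers. COL1A2 and IBSP, made by osteoblasts, had 0 counts in all 6 samples. SPARC had 0 to 5 counts, SP7 0 to 2 and ALPL 0 to 1. RUNX2, the transcription factor of the lineage, had 8, 8 and 6 counts in siMock and 73, 97 and 39 in siFUBP1, and SPP1 and BGLAP had at most 22 counts in any sample. COL1A1 had 1854, 2000 and 1692 counts in siMock and fell to 769, 792 and 792 in siFUBP1 (log2 fold change -1.31, edgeR adjusted p = 1.83e-13). VIM, the most abundant of the 10 osteoblast-lineage and mesenchymal markers, rose from 2589, 2390 and 2312 counts to 3146, 3168 and 3731 (0.38, edgeR adjusted p = 0.00021). The summed level of the 10 genes, mostly these opposite movers, was 257 to 273 CPM in siMock and 235 to 263 CPM in siFUBP1. Of 6 epithelial markers, the keratin KRT8 had 34970, 33824 and 28650 counts in siMock against 17044, 16128 and 18157 in siFUBP1, and KRT18 fell by 0.66 on the log2 scale. EPCAM (0.19) and CDH1 (-0.17) did not pass, KRT19 had at most 3 counts in a sample and KRT5 had 0. The 6 genes summed to 2528 to 2901 CPM in siMock and 1367 to 1497 CPM in siFUBP1, nearly all of it from KRT8 and KRT18. Most defining osteoblast genes were thus at or near 0 in libraries labelled MG63. KRT8 and KRT18 fell in the same samples as most of the interferon-stimulated genes, and their part in the results was not tested.

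Leukocytes express many of these genes strongly, so their markers were read too. PTPRC, carried by all nucleated blood cells, had at most 2 counts in any sample and CD3E had 0. CD68 and LYZ also had at most 2 counts. CD14 had 8, 16 and 6 counts in siMock and 14, 2 and 4 in siFUBP1. CSF1R, a receptor of macrophages, had 59, 70 and 39 counts in siMock and 7, 2 and 8 in siFUBP1, and its part in the results was not tested. The 3 endothelial markers, of which CDH5 was the most abundant, summed to 3.20 to 5.18 CPM in siMock and 1.9 to 2.81 CPM in siFUBP1. Their part in the results was not tested either. In bulk RNA, fewer cells expressing a gene and less RNA per cell cannot be told apart.

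Most of the interferon-stimulated genes were lower in siFUBP1. Of the 45 genes, 36 passed edgeR's filter on low counts and were tested. After adjustment over all 16116 tested genes, 26 of the 36 (72.2%) passed at an adjusted p below 0.05 and were lower, 6 (16.7%) passed and were higher, and 4 did not pass. Over all tested genes the shares were 30.1% lower and 30.1% higher. A gene was called when its log2 fold change was also beyond 1 in size. By this rule 15 members (41.7%) were lower, against 9.13% of all tested genes, and 1 member (2.78%) was higher, against 8.16%. The members were chosen with earlier results of these data known, so these shares are descriptions, and no test of the set was run. The median log2 fold change of the tested members was -0.70, with a range from -2.24 for OASL to 1.47 for IFI16, while the median of all tested genes was 0.0020.

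The samples of the groups separated for most members. The 3 siFUBP1 samples lay below all 3 siMock samples for 26 of the 36 genes (72.2%) and above them for 6 (16.7%). Over all tested genes these shares were 31.7% and 32.2%. With 3 samples against 3, an exact permutation test of a single gene cannot go below p = 0.1, so the tests below come from the fit across all genes.

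siMock replicate 2 had the highest level of the 3 siMock samples for 18 of the 26 members that passed and were lower. It was the highest siMock sample for 28.6% of all tested genes. Relative to the siMock mean, the median member stood at -0.06, 0.10 and 0.0030 on the log2(CPM + 0.1) scale in siMock replicates 1 to 3, and at -0.66, -0.77 and -0.68 in siFUBP1 replicates 1 to 3. Without siMock replicate 2, 23 members passed and were lower, 13 were called lower, and the median was -0.65. Without siMock replicate 1 the median was -0.79 and 19 were called lower, with HERC5, PARP14, GBP1 and TRIM22 added. GBP1 and TRIM22 entered only because that fit kept them past the filter. They passed it only through siMock, the group where they were higher, so their calls give no support for a fall.

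**Figure D1:**
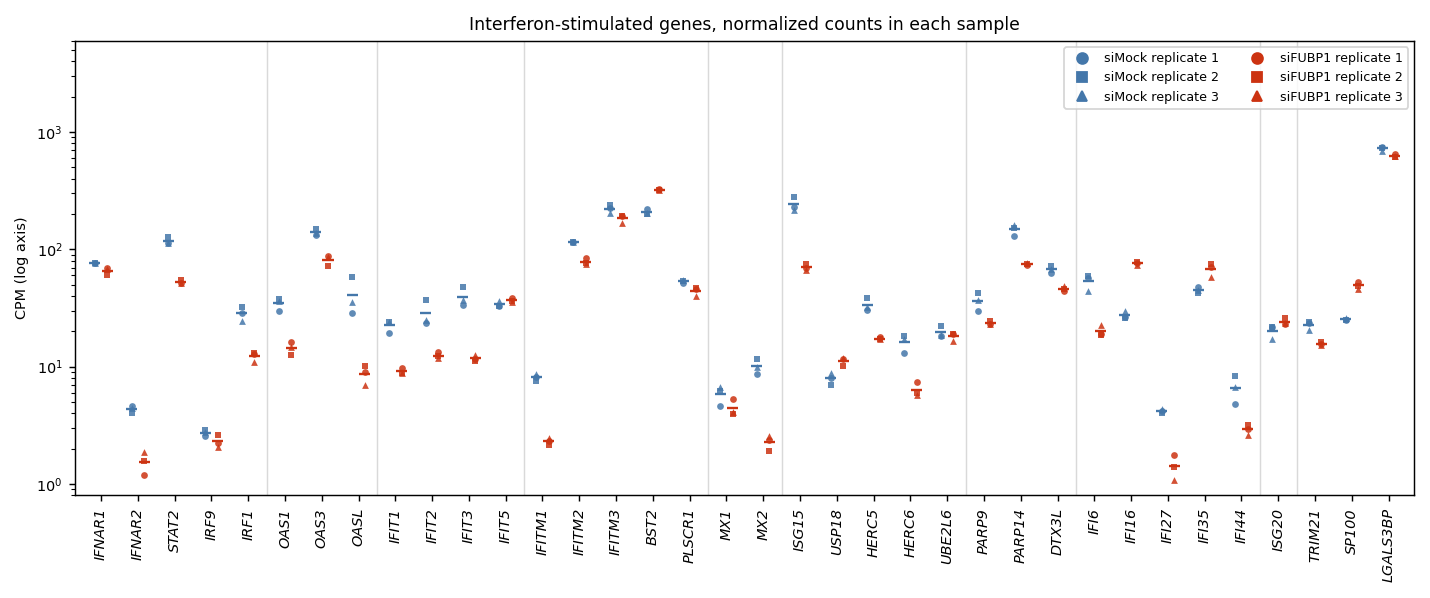
Normalized counts (CPM, log axis) of the 36 tested interferon-stimulated genes in each of the 6 samples, in the order of their roles with grey lines between roles. Short bars mark the mean of 3 samples, and most genes have all siFUBP1 points (red) below all siMock points (blue), with IFI16, SP100 and BST2 among the exceptions.

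The receptor and ISGF3 were described first. IFNAR2, the subunit that carries the docking site for JAK1 (ENSG00000159110, chromosome 21, 33229901 to 33265675, GRCh38), had 75, 68 and 69 counts in siMock and 20, 27 and 33 in siFUBP1. No siFUBP1 sample reached the siMock range, and the gene fell by 1.48 on the log2 scale (SE 0.246, edgeR adjusted p = 9.88e-06). IFNAR2 shares 44.2% of its exonic bases with the read-through gene AP000295.1, which had 0 counts in every sample, and 39.1% with IL10RB-DT on the opposite strand, which had 15, 16 and 32 counts in siMock and 0, 3 and 3 in siFUBP1. Whether the counting used strand was not given in the sources used here, so reads of the pair cannot be told apart.

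IFNAR1, the other subunit, had 1239, 1290 and 1197 counts in siMock and 1180, 1040 and 1177 in siFUBP1. This was a small difference, a log2 fold change of -0.21 (SE 0.0817, adjusted p = 0.0274 in edgeR). It no longer passed without siMock replicate 2 (-0.21, adjusted p = 0.0709) or without siFUBP1 replicate 2 (-0.14, adjusted p = 0.184).

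STAT2 (ENSG00000170581, chromosome 12, 56341597 to 56360155), the transactivating subunit of ISGF3, had 1835, 2172 and 1762 counts in siMock and 878, 943 and 904 in siFUBP1. Its level went from 118 ± 8.76 to 52.7 ± 1.44 CPM (SD, n = 3), with a log2 fold change of -1.16 (SE 0.081, edgeR adjusted p = 3.62e-12). IRF9, the DNA-binding subunit, had 42, 49 and 43 counts in siMock and 38, 45 and 36 in siFUBP1. Its groups overlapped and it did not pass (log2 fold change -0.25, SE 0.244, adjusted p = 0.395 in edgeR). IRF9 shares 48.4% of its exonic bases with AL136295.5 on the same strand, a gene with 7 to 25 counts per sample, so its counts are uncertain.

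IRF1, a transcription factor that binds similar sites and is itself induced by interferon, had 468, 546 and 383 counts in siMock and 217, 225 and 190 in siFUBP1. It fell by 1.22 on the log2 scale (SE 0.118, edgeR adjusted p = 1.75e-09), with no overlap between the groups. The overlapping C5orf56, on the opposite strand over 22% of the exonic bases of IRF1, had 118, 135 and 101 counts in siMock and 67, 57 and 81 in siFUBP1, a log2 fold change of -0.86 (edgeR adjusted p = 0.000204), and without knowing the use of strand the reads of IRF1 and C5orf56 cannot be told apart there. Of the 5 genes of this group, 3 were called lower and 4 passed and were lower, where 9.13% and 30.1% of all tested genes were. None of the 5 had a positive log2 fold change.

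The promoters bear on these genes because ISGF3 acts through them. Promoter sequence was taken from RefSeq (GRCh38.p14), as windows of 250 bases before to 50 after each start site, and 36 of the 45 genes had at least 1 window. The letters GAAA, any 2 bases and GAAA again were searched on both strands, with overlapping matches counted. They occurred in 24 of the 36 genes (66.7%), or 29 of their 51 windows (56.9%), against 3.57% of all 35116 windows. Shown are a match in each of 3 genes that fell, ISG15, IFIT1 and IFITM1, then 1 in BST2, which rose, 1 in IFIT5, which did not pass, and the match that PARP9 and DTX3L share, so that genes that moved differently can be compared letter by letter. Capitals mark the searched letters and lower case the flanking 10 bases on each side, all 5′ to 3′ on the strand where the letters read as GAAA.
ISG15, chr1:1013380-1013409, plus strand: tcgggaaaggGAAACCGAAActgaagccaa
IFIT1, chr10:89392497-89392526, minus strand: accgaaagggGAAAGTGAAActaaagctag
IFITM1, chr11:314024-314053, plus strand: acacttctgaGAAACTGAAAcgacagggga
BST2, chr19:17405741-17405770, minus strand: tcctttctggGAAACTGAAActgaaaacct
IFIT5, chr10:89414554-89414583, minus strand: cgagcgctcaGAAACTGAAActtaagaaat
PARP9 and DTX3L, chr3:122564322-122564351, plus strand: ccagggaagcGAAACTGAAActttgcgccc

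The matches began 107 bases before the start site in ISG15, 116 in IFIT1, 6 in IFITM1, 130 in BST2 and 4 in IFIT5. ISG15 and BST2 each hold a second match that overlaps the one printed. PARP9 and DTX3L are transcribed away from each other, and the match lies 41 bases before the start of PARP9 and 6 before that of DTX3L. IFITM1, BST2, IFIT5 and the PARP9 and DTX3L site all carry the same 10 letters in capitals, while IFITM1, PARP9 and DTX3L fell, BST2 rose and IFIT5 did not pass.

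**Figure D2:**
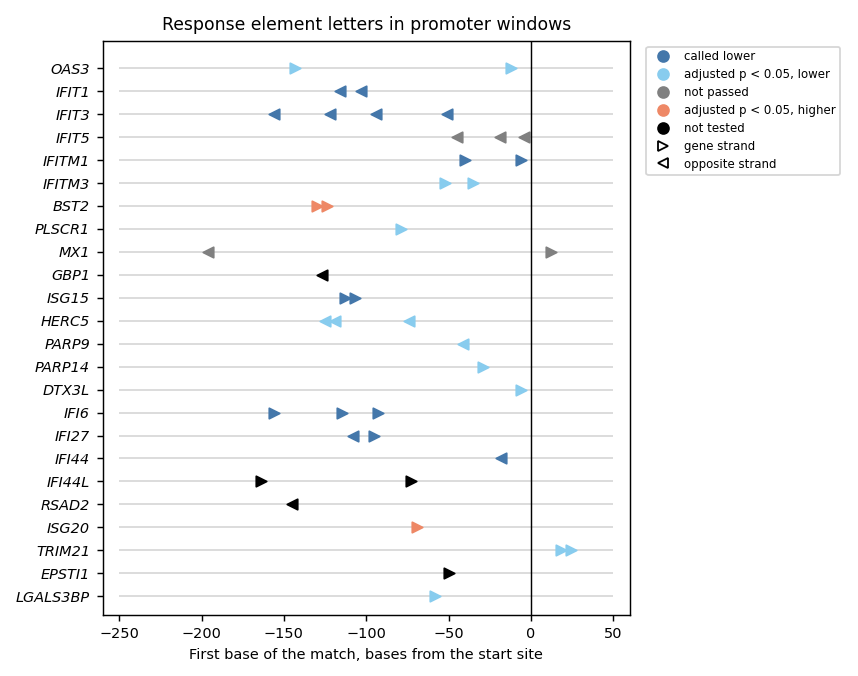
Position of the response element letters (GAAA, any 2 bases, GAAA) in the promoter windows of the 24 members that hold them, in bases from the start site (line at 0), with the arrow giving the strand relative to the gene and the color giving the outcome of the test. Where a gene has several windows, a match is placed by the first window listed, and matches stand beside genes of every outcome except called higher.

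Among the members with a window, the letters were found in 16 of 21 that passed and were lower, in 7 of 11 called lower, and in 2 of 5 that passed and were higher (BST2 and ISG20). The windows of IFI16, SP100 and IFI35, which were higher, did not hold them, nor did those of STAT2, IRF9, IRF1 and IFNAR1. The windows of OAS1 and HERC6, which were called lower, and of UBE2L6, which did not pass, also lacked them. Of 6 members with a window that were not tested, 4 held them. No window was in the table for IFNAR2, OAS2, OASL, IFIT2, IFITM2, MX2, GBP2, USP18 and TRIM22. The letters TTC, any 3 bases and GAA, those of the gamma-activated site, were in 11 of the 36 genes (30.6%), against 9.38% of all genes with a window, and in 25.5% of the 51 windows, against 7.66% of all windows.

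The same letters were then read over the whole table. Among 9997 tested protein-coding genes with a window, 381 held the response element letters. Of these, 9.97% were called lower and 6.56% higher, and their median log2 fold change was -0.02. Among the 9616 without the letters, 8.52% were called lower and 5.74% higher, with a median of -0.01. When the 45 genes and the further pathway genes were left out, 349 genes with the letters remained, 8.02% of them called lower and 7.16% higher, with a median of 0.04.

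The 2-5A synthetases make the short oligoadenylates that activate the ribonuclease RNase L. OASL, a family member without this synthetase activity, had 464, 988 and 560 counts in siMock and 152, 175 and 121 in siFUBP1. siMock replicate 2 stood 1.81 times above the mean of the other two siMock samples. OASL fell by 2.24 on the log2 scale (SE 0.352, edgeR adjusted p = 0.00393), the largest change among the tested members. Without siMock replicate 2 its log2 fold change was -1.89, and that of MX2, at -2.02, was larger.

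OAS1 had 484, 646 and 567 counts in siMock and 275, 218 and 259 in siFUBP1 (log2 fold change -1.25, SE 0.115, edgeR adjusted p = 6.64e-10). OAS3, the most abundant of the family by counts, had 2179, 2550 and 2132 counts in siMock and 1471, 1261 and 1494 in siFUBP1. It fell by 0.78 on the log2 scale (SE 0.0834, edgeR adjusted p = 1.06e-08), short of the fold threshold. OAS2 had at most 5 counts in a sample and was not tested. The 3 tested genes of this family, OASL included, thus passed and were lower, without overlap between the groups. Of all tested genes, 30.1% passed and were lower, and 31.7% lay lower without overlap.

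The IFIT proteins bind viral RNA and block its translation, and their genes lie side by side on chromosome 10. IFIT3 had 548, 811 and 573 counts in siMock and 197, 195 and 219 in siFUBP1, a fall from 39.3 ± 7.43 to 11.8 ± 0.664 CPM (SD, n = 3), giving the log2 fold change of -1.74 (SE 0.121, edgeR adjusted p = 5.02e-12). IFIT1 had 313, 412 and 373 counts against 166, 152 and 155, and fell by 1.29 on the log2 scale (SE 0.125). IFIT2 had 381, 630 and 387 against 223, 212 and 205, and fell by 1.20 (SE 0.146). Both passed edgeR's test (adjusted p = 1.64e-09 and 6.43e-07), and siMock replicate 2 was the highest sample for all 3 of these genes. Without it, IFIT2 stood at -0.96 and fell short of the fold threshold.

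IFIT5, the neighbour of IFIT1, did not pass the test. It had 533, 557 and 570 counts in siMock and 649, 631 and 627 in siFUBP1, at 34.0 ± 2.19 and 36.9 ± 1.34 CPM (SD, n = 3). The groups overlapped in CPM, and the log2 fold change was 0.12 (SE 0.0908, edgeR adjusted p = 0.265). Its sign depended on the processing, since correcting for GC content and length gave -0.03 and library totals alone gave 0.22 with an adjusted p of 0.0422.

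The membrane restriction factors act where a virus enters or leaves the cell. IFITM1, which blocks fusion at the cell surface, had 132, 128 and 136 counts in siMock and 39, 37 and 43 in siFUBP1. The samples of each group lay close together, and the gene fell by 1.81 on the log2 scale (SE 0.187, edgeR adjusted p = 5.36e-09). Its relatives IFITM2 and IFITM3, which act in endosomes, had log2 fold changes of -0.57 and -0.26, and both passed. IFITM3 no longer passed without siMock replicate 2 (-0.21, edgeR adjusted p = 0.0631). IFITM1 shares 32.5% of its exonic bases with IFITM2, and the 3 genes are close in sequence, so reads could be split between them.

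BST2, or tetherin, which holds budding virus particles at the cell surface, went the other way. It had 3568, 3383 and 3212 counts in siMock and 5529, 5548 and 5596 in siFUBP1. All siFUBP1 samples lay above all siMock samples, and the level rose from 208 ± 9.95 to 323 ± 4.15 CPM (SD, n = 3), with a log2 fold change of 0.63 (SE 0.0751, edgeR adjusted p = 5.54e-08). PLSCR1, a phospholipid scramblase, had a log2 fold change of -0.27 (adjusted p = 0.0101 in edgeR), which no longer passed without siFUBP1 replicate 3 (-0.20, adjusted p = 0.0721).

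The GTPases MX1 and MX2 trap viral nucleoproteins and capsids. MX2 had 140, 199 and 156 counts in siMock and 40, 33 and 45 in siFUBP1, and fell by 2.14 on the log2 scale (SE 0.191, edgeR adjusted p = 3.61e-10). MX1, beside it on chromosome 21, had 76, 105 and 105 counts against 89, 69 and 71. The groups of MX1 overlapped and its log2 fold change of -0.40 (SE 0.192) did not pass in edgeR (adjusted p = 0.0757), though it did without siMock replicate 1 (-0.55, adjusted p = 0.023) and without siFUBP1 replicate 1 (-0.53, adjusted p = 0.0469).

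The guanylate-binding proteins GBP1 and GBP2, large GTPases, were too low to be tested. GBP1 had 6, 19 and 18 counts in siMock and 1, 0 and 2 in siFUBP1, so its groups did not overlap. When no filter was applied, GBP1 was lower with an edgeR adjusted p of 7.46e-06. Its counts were too low for the filter with all samples, so that fit is not taken as support for a fall. GBP2 had 1 to 8 counts per sample.

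ISG15 is a small ubiquitin-like protein that is attached to other proteins by an enzyme chain that includes UBE2L6 and HERC5 and is removed by USP18. ISG15 (ENSG00000187608, chromosome 1, 1001138 to 1014540) had 3754, 4762 and 3360 counts in siMock and 1176, 1290 and 1157 in siFUBP1. Its level fell from 242 ± 34.1 to 70.1 ± 4.07 CPM (SD, n = 3), with a log2 fold change of -1.79 (SE 0.0913, edgeR adjusted p = 1.1e-14) and a 3.45-fold lower level. By FPKM, which takes gene length into account, ISG15 had the highest level of the 45 genes in siMock, at 254 ± 36.5, and stood at 74.0 ± 4.53 in siFUBP1 (SD, n = 3).

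The conjugating enzymes did not move as one. HERC6, a relative of HERC5, had 215, 308 and 267 counts in siMock and 124, 103 and 101 in siFUBP1 (log2 fold change -1.34, SE 0.15, edgeR adjusted p = 1.96e-08). HERC5, the ISG15 ligase in human cells, fell by 0.96 on the log2 scale and was called lower without siMock replicate 1 (-1.04) or with the correction for GC content and length. UBE2L6, the conjugating enzyme, had a log2 fold change of -0.11 and did not pass (adjusted p = 0.424 in edgeR). USP18, which also dampens signaling at IFNAR2, was higher, with 131, 118 and 139 counts in siMock and 196, 174 and 208 in siFUBP1 (log2 fold change 0.49, SE 0.145, edgeR adjusted p = 0.00475). Its near-identical copy USP41 had at most 1 count in a sample.

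PARP9, PARP14 and DTX3L are ADP-ribosyltransferases and a partner ubiquitin ligase. All 3 passed and were lower, where 30.1% of all tested genes were. With the fold threshold 0 of them were called lower, against 9.13% of all tested genes. PARP14, the most abundant by counts, had 2122, 2592 and 2510 counts in siMock and 1248, 1310 and 1346 in siFUBP1, and fell by 0.97 on the log2 scale (SE 0.0832, edgeR adjusted p = 1.89e-10). Without siMock replicate 1 it passed the fold threshold, at -1.06. PARP9 and DTX3L, which share the promoter match printed above, had log2 fold changes of -0.63 and -0.55. Their exons overlap over 217 bases on opposite strands.

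**Figure D3:**
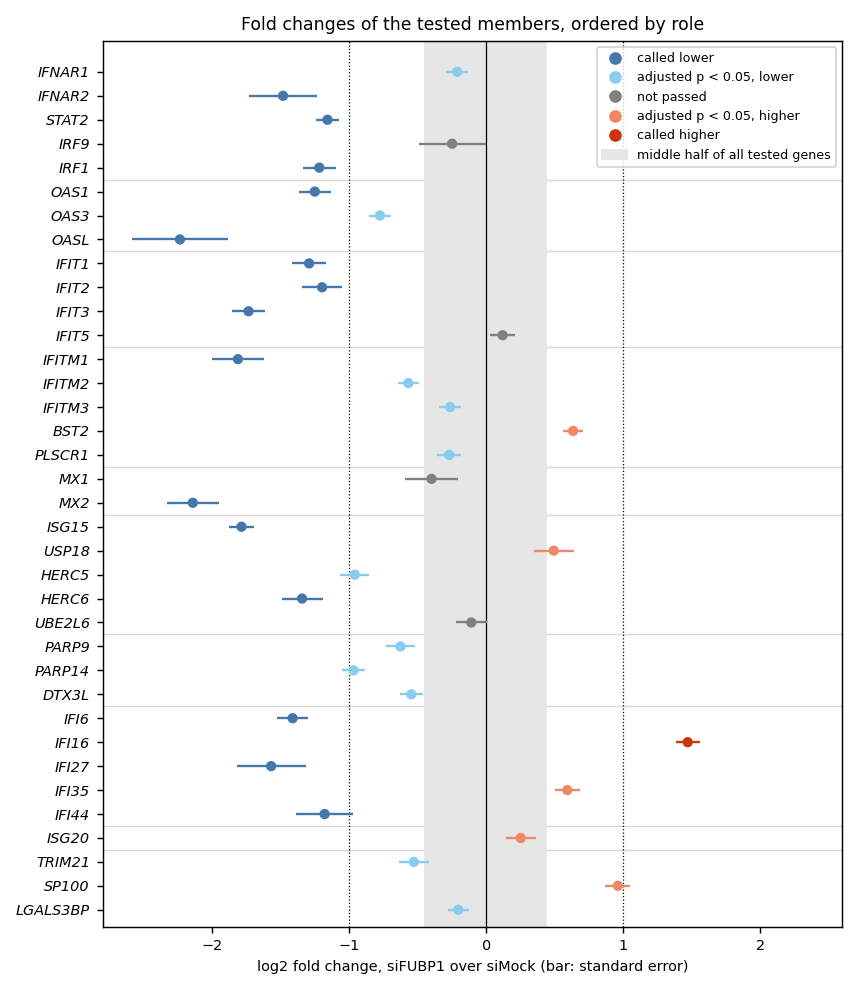
Log2 fold change of siFUBP1 over siMock for the 36 tested members, by role, with bars for the standard error of the edgeR fit and dotted lines at the fold threshold of 1. The grey band spans the middle 50% of all tested genes, and the 15 genes called lower lie left of the dotted line while IFI16 alone lies right of the other one.

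The IFI genes share a name for their induction by interferon, not a function. IFI6, a mitochondrial protein that opposes apoptosis, had 936, 1001 and 683 counts in siMock and 319, 322 and 395 in siFUBP1, and fell by 1.41 on the log2 scale (SE 0.112, edgeR adjusted p = 8.65e-11). IFI27, a relative of IFI6, had 69, 69 and 68 counts against 30, 24 and 19 (log2 fold change -1.57, SE 0.251, edgeR adjusted p = 6.12e-06). IFI44 had 78, 142 and 105 against 50, 55 and 46, and fell by 1.18 (SE 0.211, edgeR adjusted p = 2.76e-05). Each of the 3 had groups that did not overlap, where 31.7% of all tested genes lay lower without overlap. Of the 5 tested IFI genes, 3 passed lower and 2 passed higher, where 30.1% of all tested genes did in each direction. Without siMock replicate 2 the log2 fold change of IFI44 was -0.97, short of the threshold. IFI44L had 0 to 6 counts per sample.

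IFI16 (ENSG00000163565, chromosome 1, 158999968 to 159055155), a sensor of DNA in the nucleus and cytoplasm, was the 1 member called higher. It had 430, 442 and 466 counts in siMock and 1295, 1345 and 1284 in siFUBP1. The level rose from 27.4 ± 2.12 to 75.9 ± 2.10 CPM (SD, n = 3), 2.77-fold, with a log2 fold change of 1.47 (SE 0.0884, edgeR adjusted p = 1.81e-13). IFI35, a leucine zipper protein, had 772, 727 and 697 counts against 1192, 1288 and 1016 and rose by 0.59 on the log2 scale (SE 0.0929, edgeR adjusted p = 4.75e-06).

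Among the remaining genes, SP100, a component of nuclear bodies that silence viral DNA, rose by 0.96 on the log2 scale (edgeR adjusted p = 1.19e-09), from 25.3 ± 0.631 to 49.3 ± 3.34 CPM (SD, n = 3). It passed the fold threshold without siFUBP1 replicate 3 (1.01) and when library totals alone or upper quartile factors set the scale. TRIM21, a cytosolic antibody receptor, fell by 0.53. LGALS3BP, a secreted glycoprotein, was the most abundant member by counts, with 12225, 12529 and 10784 in siMock and 11019, 10584 and 10956 in siFUBP1. Its log2 fold change of -0.20 (SE 0.078, edgeR adjusted p = 0.0266) was lost in 4 of the 6 fits that left out 1 sample, with adjusted p from 0.0599 to 0.0903, and in both corrections for GC content and length.

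ISG20, a ribonuclease, had 353, 373 and 268 counts in siMock and 393, 447 and 408 in siFUBP1. It was the weakest pass, with a log2 fold change of 0.25 (SE 0.11, edgeR adjusted p = 0.0498), and leaving out siMock replicate 3 or any one siFUBP1 sample ended it, with adjusted p from 0.0595 to 0.29. RSAD2, or viperin, had 0 to 4 counts per sample, EPSTI1 0 to 2, and CMPK2 and XAF1 had 0 in all. A count of 0 allows up to 3 counts, which is 0.172 to 0.192 CPM in these libraries, counting error only. TRIM22 had 9, 26 and 20 counts in siMock and 6, 8 and 1 in siFUBP1 and was not tested. It was lower when no filter was applied (edgeR adjusted p = 0.00124), which is not taken as support for a fall either.

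**Figure D4:**
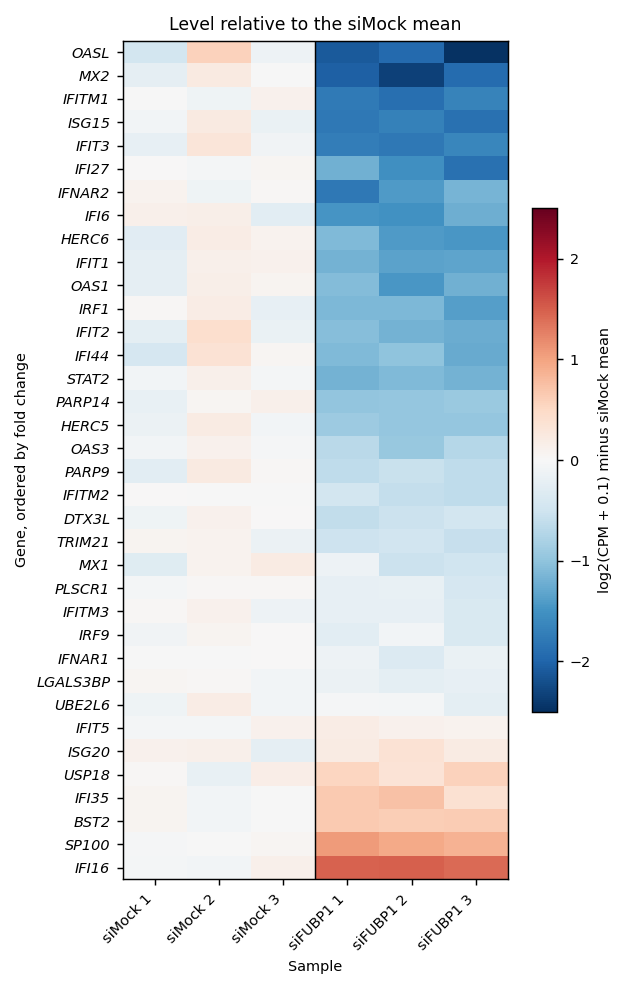
Level of the 36 tested members in each sample, as log2(CPM + 0.1) minus the mean of the 3 siMock samples, ordered by fold change from OASL to IFI16. Blue is lower and red higher than the siMock mean, and siMock 2 is visibly redder than the other siMock samples for OASL, IFIT2, IFI44 and IFIT3.

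Per length, 4 members stood above 100 FPKM in siMock, in the order ISG15 (254 ± 36.5), LGALS3BP (200 ± 8.89), BST2 (184 ± 8.62) and IFITM3 (162 ± 13.0, SD, n = 3). LGALS3BP and BST2, neighbours in that order, differed by less than the sum of their SDs, as did BST2 and IFITM3. In siFUBP1 the order was BST2 (286 ± 3.27), LGALS3BP (175 ± 5.45), IFITM3 (136 ± 10.3) and ISG15 (74.0 ± 4.53, SD, n = 3). ISG15 thus went from the first to the last of these 4, and BST2 to the first. Of the other tested members, 28 lay between 1 and 100 FPKM in siMock and 4, IFNAR2, IRF9, MX1 and MX2, lay below 1 FPKM.

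The rest of the pathway was read from the 77 further genes, of which 50 were tested. Of these, 11 (22%) were called lower and 1 (2%) higher, against 9.13% and 8.16% of all tested genes. Without the fold threshold, 31 (62%) passed lower and 8 (16%) passed higher, against 30.1% of all tested genes in each direction, and 11 did not pass. The median log2 fold change of the 50 genes was -0.35.

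Hardly any interferon transcript was counted. Of 21 ligand genes, 17 had 0 counts in all samples, among them IFNB1 and IFNG, and IFNA1, IFNK and IFNL1 had 1 or 2 counts in all. IFNE, a type I interferon of epithelia, was the 1 ligand tested. It had 7, 12 and 2 counts in siMock and 23, 35 and 42 in siFUBP1. Its fitted log2 fold change was 2.16 (SE 0.434, edgeR adjusted p = 0.000122), and its level went from 0.421 ± 0.289 to 1.93 ± 0.528 CPM (SD, n = 3). IFNE passed the filter on low counts only through siFUBP1, the group where it was higher. Its test thus gives no support for a rise, though IFNE is kept in the counts of called genes. Without siMock replicate 2 the log2 fold change was 2.75, and on log2(FPKM + 1) it was 0.84, short of the fold threshold. IFNE was named after its values were seen.

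Among the receptors and kinases, TYK2, the kinase bound to IFNAR1, had 1504, 1696 and 1387 counts in siMock and 895, 907 and 858 in siFUBP1, and fell by 0.86 on the log2 scale (SE 0.0815, edgeR adjusted p = 1.06e-09). JAK1, its partner, and JAK2, which serves the interferon gamma receptor, did not pass (log2 fold changes 0.06 and -0.14). Of the receptor chains for interferon gamma, IFNGR2 fell by 0.35 and IFNGR1 did not pass, at 0.05, but was at -0.16 with an adjusted p of 0.0398 when GC content and length were corrected for. Of the chains for interferon lambda, IFNLR1 rose by 0.68 and IL10RB fell by 1.24, from 35, 25 and 30 counts to 12, 14 and 14. IL10RB shares 38.1% of its exonic bases with AP000295.1, the gene with 0 counts named above.

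Of the 8 inhibitors of interferon signaling, 7 were tested. CISH, a cytokine-induced SOCS family member, was called lower (181, 185 and 183 counts against 71, 65 and 75, log2 fold change -1.46). PIAS1 and PTPN6 fell by 0.49 and 0.36, the phosphatase PTPN2 rose by 0.51, and SOCS3, PTPN1 and IRF2 did not pass. PTPN6 no longer passed without siMock replicate 2 (-0.31, edgeR adjusted p = 0.0609) or without siFUBP1 replicate 3 (-0.22, adjusted p = 0.11), and SOCS3, at 0.10, passed at 0.26 when GC content and length were corrected for (adjusted p = 0.000914). PIAS1 shares 30.3% of its exonic bases with CALML4 on the opposite strand.

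Of 40 other interferon-stimulated effectors, 34 were tested. Of these, 24 (70.6%) passed lower and 5 (14.7%) passed higher, against 30.1% of all tested genes in each direction, and 5 did not pass. With the fold threshold, 9 (26.5%) were called lower, against 9.13% of all tested genes, and the median log2 fold change was -0.49. PARP12, an ADP-ribosyltransferase, fell by 1.67 on the log2 scale, and ZC3HAV1, which binds CpG-rich viral RNA, fell by 1.57, from 2275, 3143 and 2441 counts to 880, 904 and 1009. DDX60, a helicase, had a log2 fold change of -1.53, APOL6 -1.41, APOL1 -1.15, SAMHD1, which degrades nucleotides, -1.08, and TDRD7 -1.04. TDRD7 fell short of the fold threshold when siMock replicate 2 was left out (-0.88), and also when siFUBP1 replicate 1 or 2 was (-0.97 each).

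The other genes called lower, IFI30 and LGALS9, had at most 33 counts in a sample. Both passed the filter on low counts only through siMock, the group where they were higher, so their tests give no support for a fall. They are kept in the counts of called genes. IFI30 no longer passed when siMock replicate 2 or either of siFUBP1 replicates 1 and 2 was left out, with edgeR adjusted p from 0.0759 to 0.267, and LGALS9 no longer passed when siMock replicate 1 or either of siFUBP1 replicates 1 and 3 was left out, with adjusted p from 0.0534 to 0.07. Those that rose were GBP3, SP110, LAP3, PNPT1 and NT5C3A, with log2 fold changes from 0.35 to 0.83. EIF2AK2, the kinase PKR, was among the 5 that did not pass, with TRIM25, SAMD9L, NMI and BATF2. ADAR, the editing enzyme of double-stranded RNA and the most abundant of these 34 genes by counts, fell by 0.93 (SE 0.08, edgeR adjusted p = 1.84e-10), from 478 ± 30.5 to 250.5 ± 15.2 CPM (SD, n = 3).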

How the data were processed

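The RNA-seq counts per gene were deposited by the authors without normalization for 3 siMock and 3 siFUBP1 samples of MG63 cells, grouped by the transfection label. Per the labels, libraries were poly-A selected. The submitters' processing notes name HISAT2 2.0.5, StringTie 1.3.3b, featureCounts 1.5.0-p3 and DESeq2 1.16.1, without a role. The genome build and the use of strand were not given in the sources used here, but all 58735 gene identifiers and positions matched GENCODE release 29 (GRCh38). FPKM values were computed by the authors per gene length and a scaled library size. The deposited signal columns, named as group means, and the authors' log2 fold changes and p-values belong to their own comparison and were not used.

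Counts were fitted over the whole table with edgeR 4.0.16 in R 4.3.3: filterByExpr with the group, TMM factors, robust quasi-likelihood fit and F test, and Benjamini-Hochberg adjustment over 16116 genes. A gene passed at an adjusted p below 0.05 and was called when the log2 fold change was also beyond 1. CPM are counts scaled to the TMM-adjusted library size. The common dispersion was 0.00684 and TMM factors lay between 0.959 and 1.05. Intervals and floors from counts cover counting error only. No pair of samples was identical, and the smallest chi-square per gene between a pair was 5.79.

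The members and lists were chosen with earlier results of these data known. Sample values are given for each called member, the receptor and ISGF3 group, and the most abundant tested member of each role. Of the further pathway genes, every tested receptor and kinase and each called gene whose mean count reached 50 was to be named, and others are named where a count of 5 or fewer turned on them. The results of 1 of these genes and of 1 leukocyte marker are not reported here. Alternatives were RLE, upper quartile and no scaling factors, DESeq2 1.42.0, other filters, limma 3.58.1 on log2(FPKM + 1) and log2(FPKM + 0.1), a correction for GC content and length (smooth trend with a span of 0.3, fitted where the mean count reached 50, with GC content known for 99.96% of tested genes), other fold thresholds, a block by replicate number, and each sample left out in turn.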

Additional observations from a re-analysis of the deposited data

How the results depend on the processing

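Over all alternatives, 580 fits of single members kept the direction and the side of the adjusted p threshold, 27 lost a pass, 3 gained one and 2 changed sign. The lost passes were those of ISG20, LGALS3BP, IFNAR1, IFITM3 and PLSCR1. Members called lower numbered 13 to 19, and those that passed lower 23 to 29, when 1 sample was left out. GBP1 and TRIM22, too low for the test with all samples, are in those counts without siMock replicate 1 or any one siFUBP1 sample. In those fits they passed the filter only through siMock, the group where they were higher, so their calls give no support for a fall. DESeq2 and edgeR without a filter also added them and called 17, and limma on log2(FPKM + 1), whose pseudocount shrinks low genes, called 7 lower. Members called higher numbered 1 to 2 with 1 sample left out, 2 with upper quartile factors and 2 with library totals alone. By glmTreat against 0.5, 3 members were called higher and 18 lower. At an absolute log2 fold change above 0.5, 4 were called higher and 22 lower. The median member stood between -0.79 and -0.65 with 1 sample left out, at -0.60 with library totals alone, where the median of all tested genes was 0.10, and at -0.54 on log2(FPKM + 1).

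Single fits of the further pathway genes lost a pass with the sign kept in 44 cases, those of C19orf66, BTN3A1, CMTR1, LGALS9, PTPN6, IFI30, LY6E and TRIM5, and gained one with the sign kept in 5, those of SOCS3 and NMI. Of these genes, 0 were called higher and 4 lower on log2(FPKM + 1), 7 lower on log2(FPKM + 0.1), 2 higher by glmTreat, and 4 higher and 21 lower at 0.5. Over all tested genes, log2(FPKM + 1) gave 462 higher and 588 lower, glmTreat 2008 higher, and the threshold of 0.5 gave 3189 higher and 3228 lower. The log2 fold changes that changed sign were, with library totals alone, EIF2AK2 (0.0296), NMI (0.0282) and SAMD9L (0.0287). With the GC and length correction, without and with the block, they were IFIT5 (-0.0274 and -0.0290), IFNGR1 (-0.161 and -0.161), HELZ2 (0.0474 and 0.0515) and IRF2 (-0.128 and -0.130). In both of these fits HELZ2 also lost its pass and IFNGR1 gained one. Leaving out each sample in turn gave ranges that crossed 0 for SAMD9L (-0.202 to 0.0601), NMI (-0.127 to 0.0104), BATF2 (-0.787 to 0.0637), IRF2 (-0.0116 to 0.116) and TRIM25 (-0.0453 to 0.0530). The cause was not tested.

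Same-numbered samples correlated at -0.0047, 0.017 and 0.12 in their deviations from the group means, so the numbers were not read as pairs. With the replicate number as a block, 15 members were called lower and 1 higher, as without it. For the 9 genes that were not tested, low expression and too few reads cannot be told apart at this depth.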
